A study of Rattus norvegicus with 9 samples.

Results

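The genes described here are 10 genes of the fat cell and of lipid storage, namely Adipoq, Lep, Plin1, Plin4, Cidec, Lpl, Cd36, Fabp4, Scd and Pparg, chosen by name from a table of gene expression in rat knee tissue. Of these 10, 9 were found by name among the 32043 genes of the table, and 8 had a mean of at least 0.5 FPKM over the 9 libraries and could be tested. FPKM is the number of fragments scaled to the length of the transcript and to a library size, so it can be compared between genes of different length. The library size behind these values was not the number of reads, but 0.193 to 2.18 times it. From smallest to largest, the libraries stood in the same order in this size as in their reads outside the mitochondrial genes. How the authors set it is not given in the sources used here, so each comparison of FPKM between libraries rests on that scaling. The expression of Cd36, the fatty acid receptor, was not analysed here, and Lep was too low to test.

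The study asked how Shengyu decoction (SYD), a prescription of traditional Chinese medicine, acts on knee osteoarthritis, and RNA was sequenced from 3 groups of 3 libraries each. All were male Sprague–Dawley rats, 8 weeks old at the start. In the control group (nc) the capsule of the knee joint was opened and sutured. In the model group (koa) the medial collateral and anterior cruciate ligaments of the left knee were cut out and the medial meniscus was removed, after a modified Hulth method, and the rats were made to move daily. The SYD group (syd), so named in the sample titles, had that same operation followed by 4 weeks of SYD extract by gavage. Its library names begin with CXTB, which does not match SYD and resembles CXB, the drug of another group of the study. The treatment of these libraries is therefore taken from the titles, and the conflict with the library names was not resolved. The labels give no dose, and the study's text names the highest of its doses for this group. Tissue was taken 8 weeks after surgery. The model is thus an injury model in 1 sex, and none of the 3 groups received SYD without surgery. The labels do not say whether the 3 libraries of a group came from separate rats, so the p-values measure the spread between these samples, which may be technical.

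Fat cells store fatty acids as triglyceride in a lipid droplet. Lipoprotein lipase (Lpl) frees fatty acids from lipoproteins in the blood, membrane and cytosolic carriers such as Cd36 and Fabp4 take them up and bind them, stearoyl-CoA desaturase (Scd) makes monounsaturated ones, and proteins of the perilipin and Cide families coat and enlarge the droplet. Pparg is the nuclear receptor that drives the differentiation of fat cells, and adiponectin (Adipoq) and leptin (Lep) are hormones that mature fat cells secrete. In the knee, fat cells lie in the infrapatellar fat pad and in the marrow under the cartilage.

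The libraries differed in depth and in their markers of cartilage. They held 14914121 to 19510537 reads each, of which the 37 mitochondrial genes took 4.05% to 4.86% in the control group, 90.7%, 39.5% and 81.3% in model 1, 2 and 3, and 23.7%, 34.7% and 72.7% in SYD 1, 2 and 3. The reads left for all other genes were 14306782 to 17373645 in the control group, 1744769 to 11106680 in the model group and 5153851 to 12745818 in the SYD group. The summed FPKM of 9 chondrocyte markers, led by Col2a1, Comp and Col11a1, was 10438, 424 and 5443 for control 1 to 3, 747, 135 and 147 for model 1 to 3, and 1138, 767 and 92.8 for SYD 1 to 3. Erythroid markers, led by Hba-a1 and Hbb, summed to 6519 to 16206 FPKM in the control group, 296 to 42447 in the model group and 1309 to 13561 in the SYD group. The tissue is labelled cartilage, while the extraction text in the labels speaks of retina. In bulk RNA, fewer cells of a type and less RNA per cell cannot be told apart, and this holds for every value below.

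The promoters of the 3 lipid droplet genes and of Adipoq are shown, with the matches to the searched motifs in capitals. They are RefSeq sequences of build GRCr8, 250 bases before to 50 bases after the start of the gene, printed 5′ to 3′ on the strand of the gene. Plin1 lies at chr1:143086099-143086398, Cidec at chr4:148137066-148137365, Plin4 at chr9:1025200-1025499 and Adipoq at chr11:91240120-91240419, all on the minus strand. For Plin4 the first of 5 listed windows is given.
Plin1: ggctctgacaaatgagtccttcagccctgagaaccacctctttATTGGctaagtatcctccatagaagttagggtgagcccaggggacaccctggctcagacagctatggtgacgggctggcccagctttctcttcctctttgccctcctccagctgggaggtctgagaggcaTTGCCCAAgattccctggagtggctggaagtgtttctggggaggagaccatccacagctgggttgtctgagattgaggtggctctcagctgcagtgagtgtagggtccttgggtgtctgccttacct
Cidec: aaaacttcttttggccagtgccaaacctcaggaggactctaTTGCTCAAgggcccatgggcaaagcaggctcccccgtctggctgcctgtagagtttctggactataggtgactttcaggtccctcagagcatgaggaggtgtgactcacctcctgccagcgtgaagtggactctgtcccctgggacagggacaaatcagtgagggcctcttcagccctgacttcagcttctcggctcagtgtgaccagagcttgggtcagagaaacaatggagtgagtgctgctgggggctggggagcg
Plin4: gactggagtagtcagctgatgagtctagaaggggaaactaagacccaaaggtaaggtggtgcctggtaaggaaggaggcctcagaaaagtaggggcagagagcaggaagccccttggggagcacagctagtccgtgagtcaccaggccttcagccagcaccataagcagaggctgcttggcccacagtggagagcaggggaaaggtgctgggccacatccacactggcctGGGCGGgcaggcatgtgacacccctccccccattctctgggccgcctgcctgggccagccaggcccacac
Adipoq: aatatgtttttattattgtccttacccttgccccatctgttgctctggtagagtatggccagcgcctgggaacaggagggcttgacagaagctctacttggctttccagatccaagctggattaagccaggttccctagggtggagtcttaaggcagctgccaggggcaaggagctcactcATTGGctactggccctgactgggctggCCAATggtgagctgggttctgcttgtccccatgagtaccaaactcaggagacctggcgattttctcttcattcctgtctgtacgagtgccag
The motifs searched, on both strands, were TATAAA of the TATA box, the CCAAT box, the GC box GGGCGG, the site TTGCNNAA, the single AGGTCA and the same letters repeated after 1 base, the element bound by Pparg with its partner receptor. Promoters were found for 8 of the 10 members and none for Lpl and Fabp4. TTGCNNAA, a form of the site of the C/EBP factors, stood in the first listed window of 3 of these 8, Plin1, Cidec and Lep, and in 10.5% of 27457 promoters of the same length. In Plin1 its first base lay 77 bases before the start of the gene and in Cidec 209 bases before it. In the same first windows, CCAAT was found in 3 members, Plin1, Lep and Adipoq, against 37.7% of all promoters, and Adipoq held it 69 and 42 bases before the start. GGGCGG was found in 3 members, Lep, Pparg and Plin4, against 34.9% of all promoters, and TATAAA in 2, Cd36 and Pparg, against 14.3%. The single AGGTCA and the repeated one had no match in the members' first windows, while 15.7% and 0.0583% of all promoters held them.

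The members spanned a wide range of levels. On the FPKM scale, Fabp4 had the highest group means, from 9.56 to 34.4 FPKM, followed by Lpl at 6.07 to 19.5. Adipoq, Scd, Pparg, Plin1, Cidec and Plin4 had group means under 5 FPKM, except for Adipoq in the SYD group, and Lep was near 0. The plot of FPKM in each library shows that for most members the spread within the model and SYD groups was wider than the distance between the groups.

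**Figure D1:**
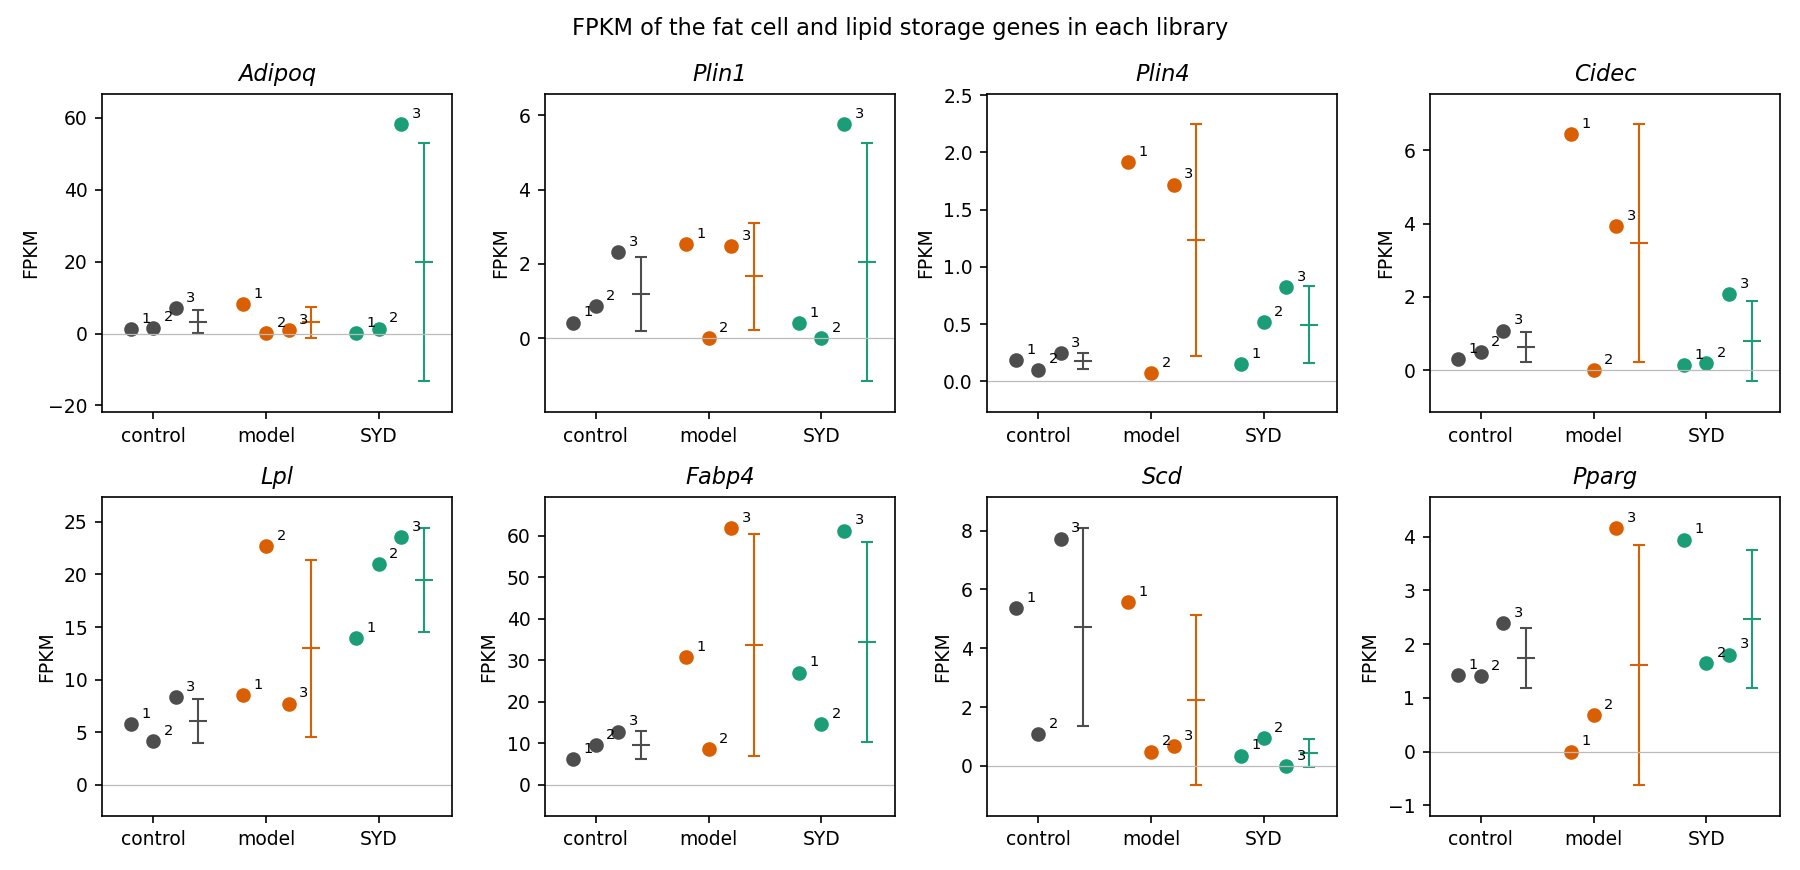
FPKM of the 8 tested genes in each library, with 1 panel per gene and its own axis; points are libraries with their replicate number, and the bar to the right of each group is the mean ± SD of its 3 libraries (where the SD exceeds the mean the bar runs below 0). Only for Lpl, Fabp4 and Scd do the SYD and control libraries stand apart, and SYD 3 carries the Adipoq mean of its group.

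Among the hormones, Adipoq (ENSRNOG00000001821, chromosome 11, 77721912 to 77735564 in the authors' table, minus strand) was 1.32, 1.63 and 7.03 FPKM in control 1, 2 and 3. It was 8.14, 0.204 and 0.910 FPKM in model 1, 2 and 3, and 0.0760, 1.40 and 58.2 FPKM in SYD 1, 2 and 3. These values rested on 3 reads in SYD 1 and 996 reads in SYD 3. The SYD group thus spanned from the lowest to the highest library of the study, and all 3 groups overlapped. The group means were 3.33 ± 3.21, 3.08 ± 4.39 and 19.9 ± 33.2 FPKM (SD, n = 3), and without SYD 3 the mean of its group was 0.737 FPKM. On the log2(FPKM + 1) scale the model group differed from the control group by −0.41 (SE 0.90, 95% CI −2.59 to 1.77, limma adjusted p = 0.836) and the SYD group from the model group by 0.95 (SE 1.60, CI −2.89 to 4.80, limma adjusted p = 0.850). The SYD group differed from the control group by 0.55 (SE 1.54, CI −3.24 to 4.33), a value that was −1.19 without SYD 3 and also below 0 with a pseudocount of 0.1 and when rescaled to TPM or fitted to reads with voom. Lep (ENSRNOG00000045797, chromosome 4, 57661131 to 57675262, plus strand) had 1 read in control 1, 2 reads in SYD 1 and 0 in the other 7 libraries. A count of 0 allows up to 3 reads, which is 0.0231 FPKM in control 3, the deepest library for this gene, and 0.251 FPKM in model 1.

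SYD 3 also held the highest value of the 9 libraries for Plin1 and Lpl, so for 3 of the 9 members in the table. Of 12 other fat cell markers, 6 were highest in SYD 3, namely Cfd, Retn, Lipe, Cidea, Aqp7 and Slc2a4, as were 11.0% of all 13898 tested genes. The summed FPKM of these 12 markers, led by Cfd, Pnpla2 and Cebpa, was 93.1, 118 and 115 for control 1 to 3, 154, 58.6 and 99.4 for model 1 to 3, and 129, 76.5 and 362 for SYD 1 to 3. Adig, Plin5, Aqp7 and Adrb3 were at 0 in all 3 model libraries and Plin5 in all 3 SYD libraries. In the control group Adig was 1.67 to 2.44 FPKM, Aqp7 0.0643 to 0.581 and Adrb3 0.0769 to 0.293. Plin5 was 0.0280 FPKM in control 2 and 0 in control 1 and 3. SYD 3 therefore stood above every other library in the summed fat cell markers too, and the share of fat cell RNA in it was not tested as a source of its values.

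The lipid droplet genes were low in every group. Plin1, the perilipin that guards the droplet of fat cells (ENSRNOG00000015086, chromosome 1, 133664892 to 133676828, minus strand), was 0.419, 0.854 and 2.32 FPKM for control 1 to 3, 2.53, 0 and 2.47 for model 1 to 3 and 0.401, 0 and 5.75 for SYD 1 to 3. Cidec, which fuses droplets (ENSRNOG00000009153, chromosome 4, 146569289 to 146582173, minus strand), was 0.299, 0.499 and 1.08 FPKM for control 1 to 3, 6.45, 0 and 3.94 for model 1 to 3 and 0.132, 0.193 and 2.07 for SYD 1 to 3. Plin4, a perilipin found on nascent droplets (ENSRNOG00000047046, chromosome 9, 929176 to 938056, minus strand), was 0.184, 0.102 and 0.244 FPKM for control 1 to 3, 1.91, 0.0743 and 1.72 for model 1 to 3 and 0.148, 0.515 and 0.821 for SYD 1 to 3. In all 3 genes, model 1 and model 3 lay high and model 2 lay at or near 0, although model 2 was the deepest of its group outside the mitochondrial genes. The 0 of Cidec and Plin1 in model 2 allows up to 0.0444 and 0.0549 FPKM, and the values of model 1 rested on only 60 reads for Cidec, 39 for Plin4 and 19 for Plin1.

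None of the 3 droplet genes passed the test between any groups. The differences between the model and control groups were 0.16 for Plin1 (SE 0.62, CI −1.34 to 1.67), 1.06 for Cidec (SE 0.78, CI −0.82 to 2.94) and 0.80 for Plin4 (SE 0.41, CI −0.21 to 1.80) on the log2(FPKM + 1) scale, with limma adjusted p of 0.911, 0.513 and 0.363. For SYD against model they were −0.12, −1.05 and −0.47, with limma adjusted p of 0.973, 0.723 and 0.759. Without model 2, Plin4 and Cidec were called higher in the model group (1.26 and 1.93, limma adjusted p = 0.0106 and 0.0275), while Plin1 was not (0.77, limma adjusted p = 0.299). With model 2 kept, quantile normalization also called Plin4, at 1.23 (limma adjusted p = 0.186). Model 2 alone, a group of 1 library, differed from the control group by −0.13 for Plin4 and −0.67 for Cidec. When FPKM was rescaled to TPM, all 3 differences between the model and control groups fell below 0, at −2.08 for Plin1, −1.13 for Cidec and −0.45 for Plin4, while the median of all genes moved from −0.23 to −2.60.

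The droplet genes and Fabp4 were highest where the mitochondrial share of the library was highest. Model 1, model 3 and SYD 3, the 3 libraries with over 70% of reads on mitochondrial genes, held the 3 highest values of Plin1, Plin4, Cidec and Fabp4, that is of 4 of the 8 tested members, as they did for 3.39% of all tested genes. A single read was also worth more there, as 1 read of Lep came to 0.0836 FPKM in model 1 and 0.0101 FPKM in control 1. Rescaled to TPM, they held the 3 highest values of 0 of the 8 members and of 0.158% of all genes, and with TPM taken without the mitochondrial genes, of 2 members, Plin4 and Cidec, and of 1.59%. The same libraries had erythroid sums of 38176, 42447 and 13561 FPKM, but control 2 had 16206, more than SYD 3. In control 2, Plin1, Plin4, Cidec and Fabp4 were 0.854, 0.102, 0.499 and 9.61 FPKM. The part of the mitochondrial share or of erythroid RNA in the values of the 4 genes was not tested. Across the 9 libraries, Pearson's r of log2(FPKM + 1) was 0.93 between Plin4 and Cidec, 0.83 between Adipoq and Plin1, 0.79 between Plin1 and Cidec and 0.75 between Plin4 and Fabp4, but 0.53 between Adipoq and Cidec and 0.39 between Adipoq and Plin4, as a description of libraries that share these differences in depth.

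**Figure D2:**
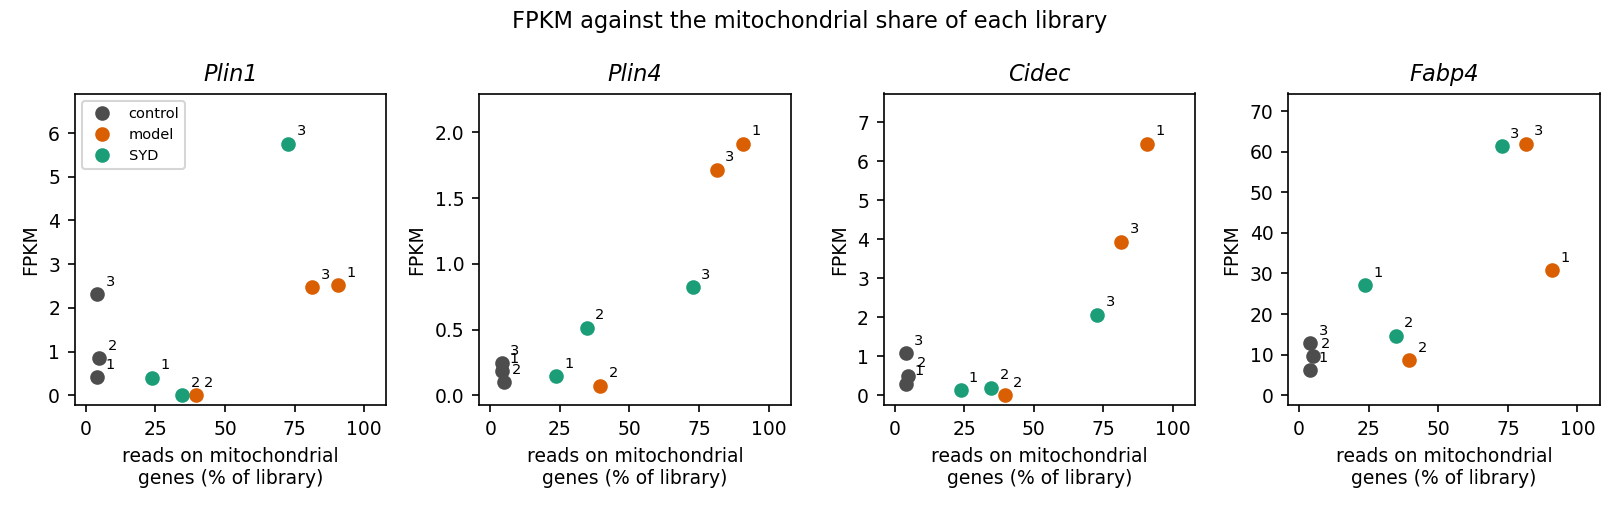
FPKM of Plin1, Plin4, Cidec and Fabp4 against the percent of the library's reads on mitochondrial genes; each point is a library, coloured by group and marked with its replicate number. The 3 libraries to the right of 70% are model 1, model 3 and SYD 3, and in each panel they hold the 3 highest values.

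Lpl was the member with the clearest difference between groups (ENSRNOG00000012181, chromosome 16, 20829465 to 20855249, minus strand). It was 5.74, 4.12 and 8.35 FPKM for control 1 to 3, 8.51, 22.7 and 7.72 for model 1 to 3 and 14.0, 21.0 and 23.5 for SYD 1 to 3. Every SYD library lay above every control library, and of the model libraries only model 2 lay within the range of the SYD group. The mean was 19.5 ± 4.94 FPKM in the SYD group and 6.07 ± 2.13 in the control group (SD, n = 3), a ratio of 3.21. The log2 difference was 1.55 (SE 0.29, CI 0.83 to 2.27, unadjusted p = 0.00200, limma adjusted p = 0.0236), so Lpl rose in the SYD group over the control group. It met the study's criteria, an unadjusted p under 0.05 and a log2 fold change over 1, in 14 of 15 alternatives, and its adjusted p was under 0.05 in 8 of them, with a range of 0.0133 to 0.850. The exception was the rescaling to TPM, with a difference of 0.16 where the median of all genes was −1.31. The model mean was 13.0 ± 8.43 FPKM, and neither the difference of 0.87 from the control group (SE 0.48, limma adjusted p = 0.384) nor that of 0.68 between the SYD and model groups (SE 0.46, limma adjusted p = 0.723) passed the test. Without model 2 these differences were 0.41 and 1.14, the latter called with a limma adjusted p of 0.147, and voom on reads called the former, at 1.36 (limma adjusted p = 0.147). With model 2 as the only model library, the difference from the control group was 1.79.

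Endothelial markers moved with Lpl between the SYD and control groups, but not throughout the model group. The sum of 8 of them, led by Pecam1, Emcn and Esam, was 55.3, 40.0 and 46.4 FPKM for control 1 to 3, 26.6, 266 and 89.9 for model 1 to 3 and 128, 162 and 138 for SYD 1 to 3. Of these 8, 5 were at 0 in model 1 and none in any other library. Model 2 had the highest sum and the highest Lpl of its group, and all SYD libraries lay above all control libraries in both. Model 1, in contrast, had the lowest sum of the 9 libraries but more Lpl than any control, and model 3 had a higher sum than the controls with Lpl inside their range. Macrophages also make Lpl, and the sum of 8 macrophage markers, led by Cd68, C1qb and C1qa, was 132 to 173 FPKM in the control group, 81.7 to 225 in the model group and 142 to 298 in the SYD group, with overlap. The part of either cell type in the difference was not tested.

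**Figure D3:**
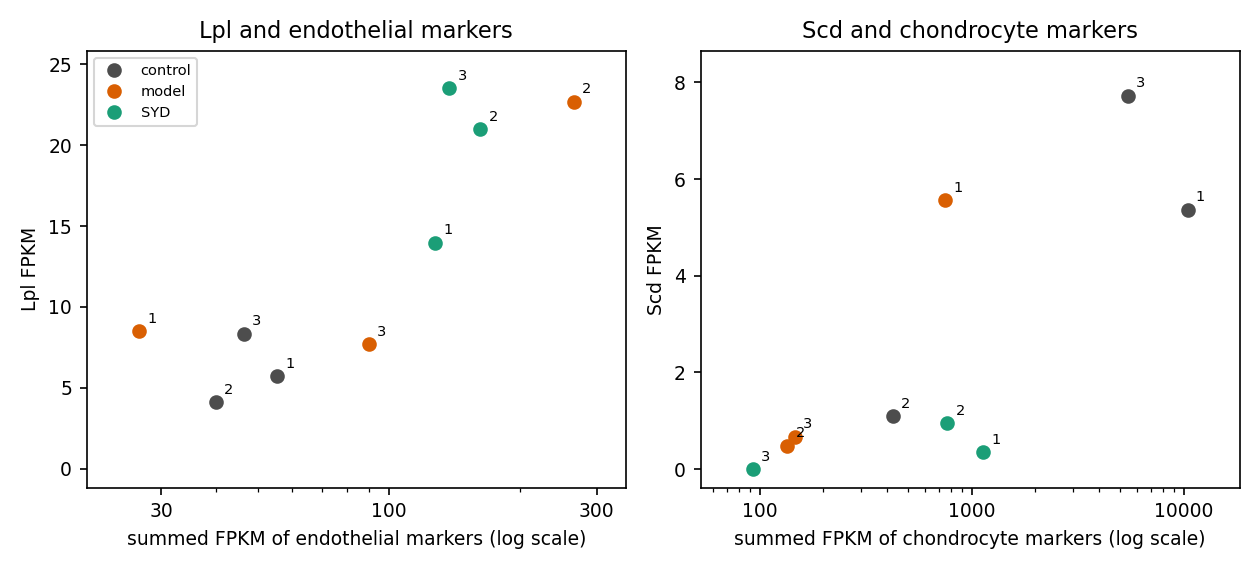
FPKM of Lpl against the summed FPKM of 8 endothelial markers (left) and of Scd against that of 9 chondrocyte markers (right), with the x axis on a log scale; each point is a library, coloured by group and marked with its replicate number. The SYD libraries lie to the upper right of the control libraries for Lpl, and for Scd the highest chondrocyte sums, 5443 and 10438 in control 3 and 1, go with 7.73 and 5.37 FPKM.

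Fabp4, the fatty acid binding protein of fat cells that capillary endothelium and macrophages also make (ENSRNOG00000010805, chromosome 2, 91580885 to 91585578, plus strand), was 6.23, 9.61 and 12.8 FPKM for control 1 to 3. It was 30.8, 8.68 and 62.0 FPKM for model 1 to 3 and 27.1, 14.7 and 61.3 for SYD 1 to 3. The SYD and control libraries did not overlap, and model 2 fell among the controls. With means of 34.4 ± 24.1 and 9.56 ± 3.30 FPKM (SD, n = 3), the SYD group was 3.59 times the control group, and without SYD 3, the library with 72.7% mitochondrial reads, its mean was 20.9 FPKM. The log2 difference was 1.56 (SE 0.54, CI 0.25 to 2.88, unadjusted p = 0.0274), which met the study's criteria but had a limma adjusted p of 0.0997, and over 15 alternatives the adjusted p ran from 0.0572 to 0.886. The call was lost without control 1, control 2 or SYD 1, with differences of 1.32, 1.59 and 1.62, and when rescaled to TPM, with 0.11. Against the control group the model group differed by 1.40 (SE 0.70, CI −0.29 to 3.09, limma adjusted p = 0.346), by 2.13 without model 2 (limma adjusted p = 0.0358), by −0.076 with model 2 as the only model library, and by −1.65 on the TPM scale. The SYD and model groups differed by 0.17 (SE 0.80, CI −1.75 to 2.09).

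In place of Cd36, the table names a gene RGD1565355 (ENSRNOG00000005906, chromosome 4, 17354466 to 17513903), described as similar to CD36 and not counted among the members. It was 4.69, 6.33 and 5.01 FPKM for control 1 to 3, 6.57, 0.133 and 9.81 for model 1 to 3 and 1.08, 0.825 and 5.70 for SYD 1 to 3. Model 2, SYD 1 and SYD 2 lay below all other libraries, and they were also the 3 libraries with the lowest erythroid sums, 296, 1309 and 1875 FPKM.

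Scd, which introduces the double bond of oleate (ENSRNOG00000013552, chromosome 1, 243269747 to 243282562, minus strand), went the other way. It was 5.37, 1.09 and 7.73 FPKM for control 1 to 3, 5.57, 0.484 and 0.673 for model 1 to 3 and 0.353, 0.954 and 0 for SYD 1 to 3. All SYD libraries lay below all control libraries, by a narrow margin between SYD 2 and control 2, and the 0 in SYD 3 allows up to 0.0556 FPKM. The means were 0.436 ± 0.482 FPKM in the SYD group and 4.73 ± 3.36 in the control group (SD, n = 3), a ratio of 0.0921. Single libraries carried these means, as the SYD mean was 0.177 FPKM without SYD 2 and the control mean 3.23 FPKM without control 3. The log2 difference was −1.82 (SE 0.58, CI −3.25 to −0.39, unadjusted p = 0.0208, limma adjusted p = 0.0837), which met the study's criteria and stayed below 0 in all 15 alternatives, with an adjusted p of 0.0312 to 0.252. The call was lost without control 1, control 3, SYD 1 or SYD 3 (−1.63, −1.40, −1.80 and −1.59) and with voom on reads. The model group differed from the control group by −0.95 (SE 0.81, CI −2.90 to 1.01, limma adjusted p = 0.573) and the SYD from the model group by −0.88 (SE 0.65, limma adjusted p = 0.723). Chondrocyte marker sums were also highest in control 1 and control 3 and, within the model group, in model 1. In the SYD group, SYD 3 was lowest in both, but SYD 1 had the highest sum, 1138 FPKM, and less Scd than SYD 2, and it exceeded model 1 and control 2 in the sum while lying below both in Scd. Of the 9 markers 1 was at 0 in each model library and in SYD 3, and their part in the difference was not tested. Scd2, a close paralog with which reads may have been split, was more abundant, at 60.4, 14.2 and 36.1 FPKM for control 1 to 3, 12.6, 28.4 and 9.83 for model 1 to 3 and 26.2, 21.7 and 18.7 for SYD 1 to 3, with all groups overlapping.

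Pparg (ENSRNOG00000008839, chromosome 4, 148423194 to 148548468, plus strand) was 1.43, 1.40 and 2.39 FPKM for control 1 to 3, 0, 0.681 and 4.16 for model 1 to 3 and 3.94, 1.64 and 1.80 for SYD 1 to 3. The 0 of model 1 allows up to 0.381 FPKM, and the model group held both the lowest and the highest library. The differences were −0.40 between the model and control groups (SE 0.64, CI −1.94 to 1.15), 0.69 between the SYD and model groups (SE 0.70, CI −0.99 to 2.37) and 0.30 between the SYD and control groups (SE 0.31), with limma adjusted p of 0.769, 0.759 and 0.533. Without model 3, Pparg was called lower in the model group than in the control and the SYD group, with no adjusted p under 0.05. On the TPM scale the model group differed from the control group by −2.38 (limma adjusted p = 0.0167), where the median of all genes was −2.60. Pparg did not follow the droplet genes over the libraries, with r of −0.16 to Plin4 and −0.21 to Cidec.

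In the comparison of the model with the control group, none of the 8 tested members met the study's criteria in the limma fit, and the smallest unadjusted p was 0.0903, for Fabp4. Voom on the reads called 1 of them. Of all 13898 tested genes, 3.55% were called higher and 11.2% lower, 2.59% had an adjusted p under 0.05, and 28.7% did not overlap between the groups in either direction, while all 8 members overlapped. The median difference was 0.48 over the members and −0.23 over all genes. In the comparison of the SYD with the model group none of the 8 was called by limma or by voom, and all overlapped. There 3.62% of all genes were called higher and 0.532% lower, 11.1% did not overlap, and 0% had an adjusted p under 0.05, although 731 had an unadjusted one. The medians were 0.02 over the members and 0.22 over all genes.

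In the comparison of the SYD with the control group, 2 of the 8 members were called higher, Lpl and Fabp4, against 7.25% of all tested genes, and 1 lower, Scd, against 9.22%. An adjusted p under 0.05 was reached by 1 member and by 17.3% of all genes. Groups without overlap were seen for 2 members higher and 1 lower, against 20.3% and 22.2% of all genes, which is near the background. The median was 0.31 over the members and 0 over all genes. On the TPM scale 0 members were called higher and 2 lower, against 128 and 5901 genes in all. The 3 comparisons share groups and are not independent of each other.

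**Figure D4:**
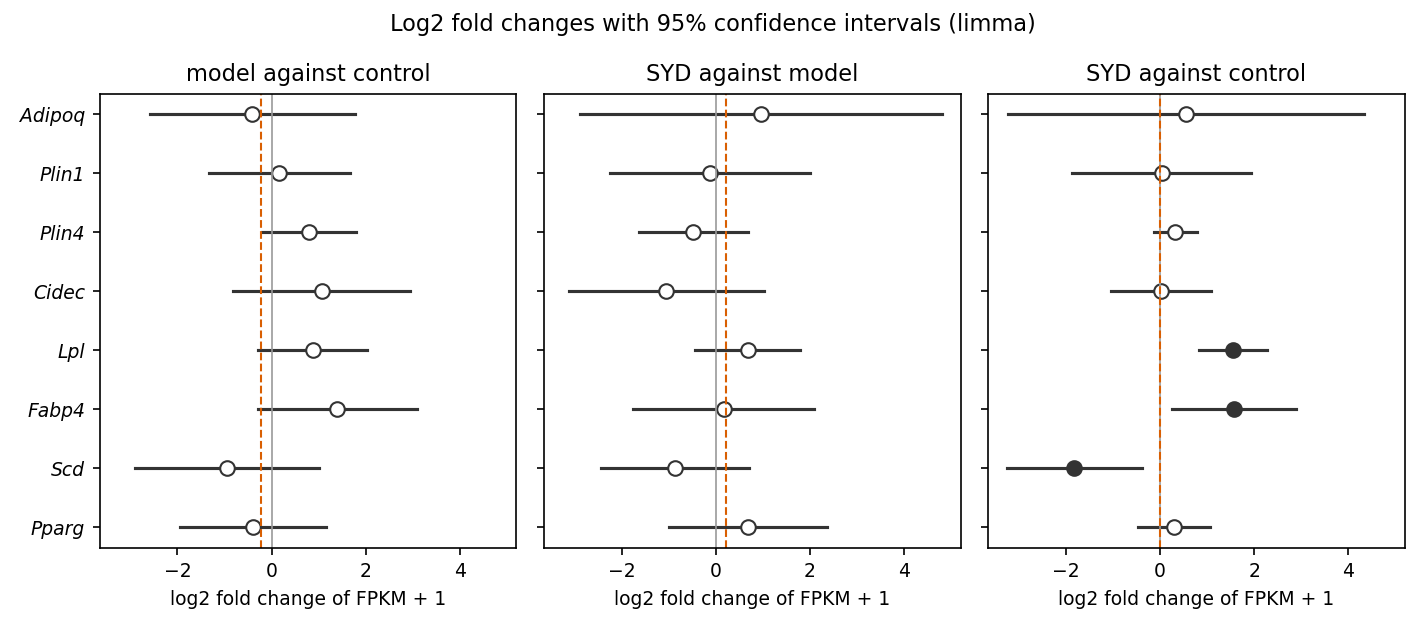
Log2 fold change of FPKM + 1 of the 8 tested genes in each comparison, with the 95% confidence interval of the limma fit as a line; filled points met the study's criteria, and the dashed line is the median of all 13898 tested genes. Only Lpl, Fabp4 and Scd between the SYD and control groups are filled, and all intervals in the other 2 panels cross 0.

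Further genes of fat cells and lipid metabolism were listed in 5 groups, of which 67 of 68 had a row and 62 could be tested. Between the SYD and control groups 7 of the 62 were called higher and 2 lower, against 7.25% and 9.22% of all tested genes, and 8 had an adjusted p under 0.05, against 17.3%. On the TPM scale this split was 0 higher and 25 lower, and with voom on reads 9 and 5, where of all genes 128 and 5901, and 1645 and 1746, were called. Among the 12 transcription factors tested, 3 were called higher, against the same 7.25%. Cebpb and Cebpd, which act early in fat cell differentiation and also in inflammation, rose from 8.77 ± 1.25 to 47.8 ± 23.9 FPKM and from 10.3 ± 1.02 to 49.6 ± 21.0 FPKM (SD, n = 3), with log2 differences of 2.21 (SE 0.36, limma adjusted p = 0.0170) and 2.09 (SE 0.29, limma adjusted p = 0.0126). Endothelial and osteoblast marker sums were also higher in all SYD than in all control libraries, at 128 to 162 against 40.0 to 55.3 FPKM and 7761 to 10493 against 3002 to 5963 FPKM, and their part in these 2 differences was not tested. Cebpa, the factor of the mature fat cell, was 12.2 ± 2.21 and 9.89 ± 3.68 FPKM in the control and SYD groups and did not pass. Ebf1, a factor of fat and B cell development, was lower by a smaller step, with a difference of −0.66 (SE 0.15, limma adjusted p = 0.0383) that missed the fold criterion.

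Of the 13 genes of fatty acid uptake and activation, 1 was called higher in the SYD group, against 7.25% of all tested genes. Cav1, the caveolin of fat cell and endothelial membranes, rose from 5.34 ± 3.55 to 52.1 ± 27.6 FPKM (SD, n = 3), a log2 difference of 3.12 (SE 0.56, limma adjusted p = 0.0202). Its highest libraries were model 2 with 92.0 FPKM and SYD 2 with 83.4 FPKM, which also had the highest endothelial sums. Fabp5 and Acsl1, the next most abundant genes of the list, did not pass, at 18.6 ± 2.64 and 14.0 ± 3.92 FPKM in the control group and 21.3 ± 7.32 and 8.52 ± 8.19 in the SYD group. Of the 11 tested droplet and lipolysis genes 1, the hormone-sensitive lipase Lipe, was called higher, again against 7.25%, rising from 1.81 ± 0.151 to 5.71 ± 2.39 FPKM (log2 difference 1.19, SE 0.30, limma adjusted p = 0.0476). That difference was 0.029 on the TPM scale. Pnpla2, Mgll and Plin2, the most abundant of that list, were 11.8 ± 2.47, 11.6 ± 2.57 and 8.16 ± 1.59 FPKM in the control group and 15.2 ± 6.49, 11.9 ± 4.05 and 14.4 ± 3.65 in the SYD group, and none passed.

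Of the 18 genes of fatty acid and triglyceride synthesis 2 were called lower, against 9.22% of all tested genes. Gpam, which starts triglyceride synthesis, fell from 6.70 ± 0.380 to 1.60 ± 0.705 FPKM (SD, n = 3; log2 difference −1.61, SE 0.25, limma adjusted p = 0.0151), and Fads2, a desaturase of polyunsaturated fatty acids, fell from 8.52 ± 0.625 to 2.48 ± 1.51 FPKM (−1.57, SE 0.39, limma adjusted p = 0.0454). Both were called in all 15 alternatives, with an adjusted p under 0.05 in 10 of them for Gpam and in 6 for Fads2. Acly, which supplies acetyl-CoA, was 20.0 ± 3.66 and 10.9 ± 2.44 FPKM in the control and SYD groups (−0.83, SE 0.21, limma adjusted p = 0.0463), under the fold criterion. Elovl5 was 17.6 ± 1.47 and 14.9 ± 3.90 FPKM and did not pass. Of the 8 secreted products and hormone receptors 2 were called higher, against 7.25% of all tested genes, namely Angptl4 and Cdh13, with differences of 1.42 (SE 0.37, limma adjusted p = 0.0504) and 1.97 (SE 0.79, limma adjusted p = 0.142), named because they are few. Cdh13 was called in only 4 of 15 alternatives, with a difference of 0.94 to 2.82, and its groups overlapped, as control 1 was 3.15 and SYD 3 2.61 FPKM. Angptl4 inhibits Lpl, and Cdh13 is a receptor of adiponectin on endothelium. Cfd, Adipor1 and Rbp4, the most abundant of that list, were 69.6 ± 8.21, 52.2 ± 16.7 and 12.0 ± 7.11 FPKM in the control group and 143 ± 129, 36.2 ± 15.5 and 16.9 ± 12.9 in the SYD group, and none passed.

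Between the model and control groups 2 of the 62 genes were called higher and 7 lower, against 3.55% and 11.2% of all tested genes, which is near the background, and the smallest adjusted p was 0.0719, for Gpam at −2.36 (SE 0.51). Chosen after their values were seen, the 2 called higher were Fabp3, the fatty acid binding protein of muscle, at 2.44 (SE 0.66, limma adjusted p = 0.117) and Cebpb at 1.08 (SE 0.25, limma adjusted p = 0.0817), which was −1.91 on the TPM scale. The others called lower were Adipor2 at −2.41, Srebf1 at −1.88, Fads2 at −1.84, Lmf1 at −1.46, Lepr at −1.19 and Acly at −1.04, of which Adipor2 and Srebf1, like Gpam, were called in all 16 alternatives, Fads2 in 11, Lmf1 in 10, Acly in 9 and Lepr in 6. Fabp3 was 0.745, 0.405 and 0.265 FPKM for control 1 to 3 and 7.79, 2.23 and 16.6 for model 1 to 3. The sum of 6 skeletal muscle markers, led by Acta1, Ckm and Tnni2, was 279, 53.6 and 18.6 FPKM for control 1 to 3 and 107, 17.1 and 505 for model 1 to 3, and its part in the Fabp3 values was not tested. The split was 0 and 48 on the TPM scale, 4 and 6 with quantile normalization and 5 and 12 with voom, where of all 13898 genes 38 and 10407, 944 and 1094, and 801 and 2474 were called higher and lower. For SYD against model 4 were called higher and 0 lower, against 3.62% and 0.532% of all tested genes, with unadjusted p only and a limma adjusted p of 0.723 for each. These were Angptl4 at 2.12, Slc27a1 at 1.94, Cebpb at 1.14 and Srebf1 at 1.67, also chosen after their values were seen. They were called in 12, 5, 11 and 14 of 16 alternatives, and Slc27a1 ran from 0.23 to 3.70.

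Of the other marker lists, only that of osteoblasts set a group apart in its sum. Neutrophil markers, led by S100a8, S100a9 and Ngp, summed to 2971 to 5679 FPKM in the control group, 69.2 to 7781 in the model group and 523 to 3365 in the SYD group. Marrow stroma markers, led by Cxcl12, Pdgfrb and Foxc1, summed to 78.7 to 112, 96.8 to 178 and 82.7 to 193 FPKM in the same order. Osteoblast markers, led by Col1a1, Bglap and Ibsp, summed to 3002 to 5963, 1246 to 7479 and 7761 to 10493 FPKM. The SYD sums thus lay above all others, by a narrow margin to the model group. Of the single markers only Runx2 was higher in every SYD library than in all others. In SYD 3, for example, Ibsp was 135 FPKM, against 157 to 384 in the control group. Col1a1 was 3991 FPKM in SYD 3 and 4426 in control 1. Skeletal muscle markers summed to 23.0 to 806 FPKM in the SYD group.

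The genes most alike to a member over the 9 libraries were taken by Pearson's r of log2(FPKM + 1). For Adipoq they were Plpbp (0.896), Cdk2ap2 (0.889), the unnamed ENSRNOG00000065796 (0.884), an unannotated locus (0.879) and Actmap (0.874), all 5 with their highest value in SYD 3, at 7.34, 28.4, 9.26, 7.69 and 3.28 FPKM. For Fabp4 they were Rps14 (0.957), Ccl5 (0.938), Rps7-ps23 (0.938), Mrps35 (0.935) and Myh7b (0.933). Rps14, a ribosomal protein gene, was 85.2, 97.4 and 103 FPKM for control 1 to 3, 136, 91.8 and 214 for model 1 to 3 and 125, 95.6 and 164 for SYD 1 to 3. None of the 10 genes was from the lipid lists.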

How the data were processed

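Total RNA of 9 libraries was sequenced, and the authors deposited 1 table of FPKM values, listing each gene's position beside its value in every library. The submitters' processing notes list HISAT2 2.0.5 and the human build hg38, while the gene identifiers and positions are those of rat. The counter, the annotation release and the rat build are not given in the sources used here. The number of columns of values per library left out was 0.

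FPKM times gene length was a whole multiple of 1 step per library for 100.0% of values (tolerance 0.1), which gave the reads. The authors' effective library size was 0.193 to 2.18 times the reads. The range of 3 reads taken for a count of 0 covers counting error only.

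Groups were compared with limma 3.58.1 in R 4.3.3 (lmFit, eBayes with trend, two-sided) on log2(FPKM + 1) for the 13898 genes whose FPKM averaged 0.5 or more, in the 6 libraries of the 2 groups, after a check on simulated data. A gene was called at an unadjusted p under 0.05 together with a log2 fold change beyond ±1, the study's criteria. Adjusted p are Benjamini-Hochberg values over all tested genes. Fold changes on this scale understate those of low genes. Members and lists were chosen with earlier results of these data known. Of each further list the 3 most abundant genes and those with an adjusted p under 0.05 were named, and of each marker list the 3 most abundant. Alternatives were a pseudocount of 0.1, 2 other filters, TPM with and without mitochondrial genes, quantile normalization, voom on reads, a fit of all 9 libraries, a replicate block and leaving out each library.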

Additional observations from a re-analysis of the deposited data

How the results depend on the processing

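Leaving out single libraries and rescaling changed more than the filters did. The number of members called was 0 between the model and control groups, and became 4 on the TPM scale (all lower, where 10407 of 13898 genes were called lower), 1 with quantile normalization, 1 with voom on reads, and 1 without the 3 libraries of over 70% mitochondrial reads (an alternative chosen after seeing the data, which leaves model 2 as the only model library, so that it is assumed to vary like the other group). It was 0 to 3 with 1 library left out, with 3 without model 2 and 1 without model 3. Between the SYD and model groups the number was 0, and 0 to 2 with 1 library left out (2 without model 2, 1 without model 3). Between the SYD and control groups it was 3, and 1 to 3 with 1 library left out (1 without control 1 and 1 without SYD 1). For the further lipid genes, the 9 called between the model and control groups became 48 on the TPM scale, 17 with voom and 15 with model 2 as the only model library, and 4 to 18 with 1 library left out (4 and 5 without control 1 and control 3, 18 without model 2). The 4 called between the SYD and model groups became 7 with voom, 8 in the fit of all 9 libraries and 2 with model 2 as the only model library, and 1 to 11 with 1 library left out (11 without model 2, 1 without SYD 1 and 1 without SYD 3). The 9 called between the SYD and control groups became 25 on the TPM scale and 14 with voom. The causes were not tested.

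Some log2 differences changed sign. Between the model and control groups, Plin1 became −0.27 with a pseudocount of 0.1, −2.08 on the TPM scale, −0.34 on TPM without mitochondrial genes, −0.85 with voom and −1.04 without the 3 libraries. On the TPM scale Plin4, Cidec, Lpl and Fabp4 became −0.45, −1.13, −1.92 and −1.65. Pparg became 0.06 with quantile normalization, and without the 3 libraries Plin4, Cidec and Fabp4 became −0.13, −0.67 and −0.076. With 1 library left out, Adipoq ran from −1.27 to 0.19, Plin1 from −0.14 to 0.77 and Pparg from −1.06 to 0.12.

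Between the SYD and model groups, Plin1, Plin4 and Scd became 0.66, 0.32 and 0.11 on the TPM scale, and Plin4 became 0.37 with voom. Without the 3 libraries Plin1, Plin4, Cidec, Lpl and Scd became 0.24, 0.30, 0.22, −0.39 and 0.13. With 1 library left out, Adipoq ran from −0.78 to 2.11, Plin1 from −0.96 to 0.42 and Fabp4 from −0.57 to 0.78. Between the SYD and control groups, Adipoq, Plin1 and Cidec became −0.063, −0.68 and −0.31 with a pseudocount of 0.1, and −1.59, −2.35 and −0.86 with voom. On the TPM scale Adipoq, Plin1, Plin4, Cidec and Pparg became −1.19, −1.42, −0.12, −1.18 and −0.86, and on TPM without mitochondrial genes Plin1 and Cidec became −0.50 and −0.26. With 1 library left out, Adipoq ran from −1.19 to 1.70, Plin1 from −0.80 to 0.58 and Cidec from −0.46 to 0.26.

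The median difference of all genes was −2.60, 1.22 and −1.31 on the TPM scale in the 3 comparisons, against −0.23, 0.22 and 0 as deposited. The deviations of same-numbered libraries from their group means correlated at −0.27 to 0.19. With 3 libraries per group that differ widely in depth, this cannot show whether the replicate numbers pair the samples. With the replicate block 0, 0 and 3 members were called and 7, 3 and 8 of the further genes, and Lpl had an adjusted p of 0.0618 between the SYD and control groups. The filter at a mean FPKM of 1 removes Plin4. Depth limited the model group most, where 1744769 reads outside the mitochondrial genes remained in model 1.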
